A study of Arabidopsis thaliana with 12 samples.

Results

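The response examined here is the part of the leaf's dexamethasone response that differed between CPR5-C transgenic and wild-type leaves. It was measured as a genotype by treatment interaction: for each probe set, the change from water to dexamethasone in CPR5-C leaves minus the same change in wild-type leaves. All 12 of the series' 12 arrays enter it, in 4 groups of 3. They held RNA from the mature leaves of Arabidopsis thaliana in the Col-0 background at an age of 4 weeks: Dex:YFP-CPR5-C plants sprayed with 50 µM dexamethasone, Dex:YFP-CPR5-C plants sprayed with water, wild-type plants sprayed with 50 µM dexamethasone, and wild-type plants sprayed with water. Leaves were taken 24 hours after the spray. The transgene carries the C-terminal part of the CPR5 protein fused to YFP, a fluorescent tag, and the study's design calls it a dominant negative form. The labels name a single transgenic genotype without saying how many independent lines it stands for, and do not describe the inducible promoter further. No group carries an inducible construct without CPR5-C, so a response to the construct itself and a response to the CPR5 fragment cannot be told apart. No probe set was named for CPR5, and its induction was not checked.

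The CPR5 protein spans the nuclear envelope and belongs to the nuclear pore complex. Plants that have lost it are known for spontaneous lesions, raised immunity, early leaf senescence and stunted trichomes. Dexamethasone is an animal steroid hormone analogue used in plants as a chemical switch, because plants have no receptor of that class of their own. A wild-type plant sprayed with it shows what the spray does without the switch, and the interaction subtracts that.

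In the deposited log2 signals each probe set's median over the 12 arrays had been removed, so a value of 0 is the middle of the 12 arrays and no absolute level or detection could be read. For the same reason leaf identity could not be checked from levels. An interaction of 1 means that the ratio of dexamethasone to water was 2 times as high in CPR5-C leaves as in wild-type leaves. A probe set was called when its adjusted p in the limma fit across all 22746 probe sets was under 0.05. The values of the CPR5-C dexamethasone arrays spread widely (SD over probe sets 0.68 to 0.69), and those of the other 9 arrays less (0.13 to 0.23). Among these 9 the wild-type water arrays spread most (0.19, 0.23 and 0.20). The poly-A spikes are bacterial RNAs that are commonly added in fixed amounts during labelling. Their mean centred signal was -0.46, -0.59 and -0.09 on the CPR5-C dexamethasone arrays, 0.08, 0.07 and -0.05 on the CPR5-C water arrays, 0.27, 0.06 and 0.10 on the wild-type dexamethasone arrays and 0.03, -0.14 and 0.02 on the wild-type water arrays. Scaling each array to them adds 0.58 to every interaction and moves the median of all probe sets from 0.01 to 0.59, so every interaction below is relative to the bulk of the array. A negative interaction smaller in size than 0.58 turns positive on that scale. In whole leaves, fewer cells of a type and less RNA per cell cannot be told apart.

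The interaction was called for 8755 probe sets, or 38.5% of those tested. Of these, 4121 had a higher dexamethasone response in CPR5-C leaves (18.1%) and 4634 a lower one (20.4%). Quantile normalization of the centred values, which gives every array the same spread, left 1638 higher and 1903 lower calls. Because the CPR5-C dexamethasone arrays spread most, it shrinks their differences by construction and widens those of the other arrays. A call lost under it therefore does not show that a response was absent. A gene is called measured below when a probe set could be given to it alone, and genes whose probe sets could not be named are not counted. The calls of at least 1 in size were 1180 higher (5.19%) and 1183 lower (5.2%). At 2 or more in size the sides were uneven, with 340 higher and 236 lower, and at 4 or more there were 52 higher and 10 lower. The extremes were 9.04 and -4.85, both for probe sets without a gene name, and 10 of the 20 highest and 14 of the 20 lowest had no single gene. Only 1181 of the 2363 calls of at least 1 could be given a gene. The 3 CPR5-C dexamethasone arrays lay above all 9 others for 4783 probe sets (21.0%) and below all 9 for 4685 (20.6%). Among the calls of at least 1 they did so for 1102 of the 1180 higher ones and 1135 of the 1183 lower ones; a large interaction makes this likely, and the shares are a description.

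The 2363 calls of at least 1 were sorted by how much of the interaction came from the wild-type arrays. For 1894 of them (80.2%) the wild-type change was small against the interaction (a share between -0.25 and 0.25), with 965 higher and 929 lower. The median change in this class was 1.46 in size in CPR5-C leaves and 0.12 in wild-type leaves. In 254 (10.7%) the genotypes changed in opposite directions, in 166 they changed in the same direction and more in CPR5-C leaves, in 30 the change was in wild-type leaves with little in CPR5-C leaves, and in 19 both changed the same way and CPR5-C leaves less. A second sorting asked which group of arrays stood apart from the other 3, and this was the CPR5-C dexamethasone group for 2201 of the 2363. It was the CPR5-C water group for 15, the wild-type dexamethasone group for 43, the wild-type water group for 37, and no group for 67. Sorting by share uses the values that called the interaction, so no test was made between classes.

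**Figure D1:**
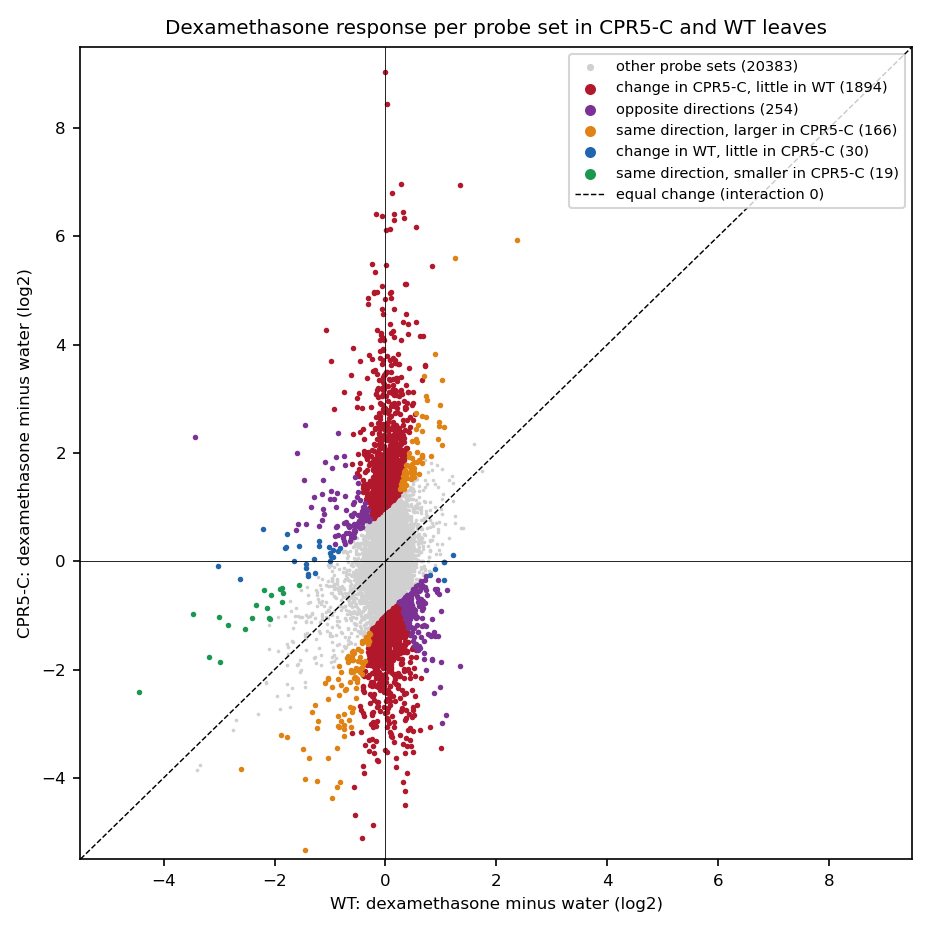
Change from water to dexamethasone for each probe set in CPR5-C leaves (vertical axis, log2) and in wild-type leaves (horizontal axis, log2). Coloured points are the 2363 calls of at least 1, by class, and the dashed line marks equal changes; 1894 of them run along the vertical axis, where wild-type leaves changed little.

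Among the gene groups, the abscisic acid and dehydration list had the highest median interaction, but only 4 of its 33 listed genes were measured. All 4, which are LTI30, COR15B, COR15A and COR47, were called higher, against 18.1% of all probe sets. Their median interaction was 4.73, and the rest of the list could not be read. LTI30, a dehydrin, had 5.81, 5.62 and 4.73 in CPR5-C dexamethasone leaves and 0.02, -0.02 and 0.11 in CPR5-C water leaves, against -0.08, -0.31 and -0.34 in wild-type dexamethasone leaves and 0.12, -0.09 and -0.21 in wild-type water leaves. Its interaction was 5.53 ± 0.28 (SE, 3 arrays a group; limma adjusted p = 2.08e-09). COR15B, a chloroplast protein that protects membranes in the cold, had 4.72, 4.74 and 4.58 with dexamethasone and -0.23, -0.31 and -0.29 with water in CPR5-C leaves, and -0.25, -0.13 and 0.04 and then 0.23, -0.04 and 0.09 in wild-type leaves under the same sprays. For both genes the 3 CPR5-C dexamethasone arrays stood alone, and the other 3 groups overlapped or lay close together. COR15A and COR47 followed with interactions of 4.29 and 4.17. The late embryogenesis protein LEA4-5 reached 3.67, 3.38 and 2.48 in CPR5-C dexamethasone leaves against -0.13, -0.14 and 0.05 in wild-type dexamethasone leaves, an interaction of 3.002 ± 0.31. EEL, a bZIP factor known from seeds for binding the promoters of late embryogenesis genes, had 2.64, 2.705 and 2.59 in CPR5-C dexamethasone leaves, and its other 9 values lay between -0.15 and 0.07. Among the 22 probe sets of bZIP factors, 6 were called higher and 1 lower (31.8%, below the 38.5% called over all probe sets). EEL had the largest interaction of these (2.72 ± 0.09, adjusted p = 3.83e-11). After quantile normalization all 4 dehydration genes were still called higher, LTI30 at 2.58, while LEA4-5 was not called.

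ALDH7B4, an aldehyde dehydrogenase induced by drought and salt, had 4.41, 4.36 and 4.25 in CPR5-C dexamethasone leaves and -0.24, -0.05 and 0.15 in CPR5-C water leaves. The wild-type values were 0.01, -0.01 and 0.06 with dexamethasone and -0.26, -0.60 and -0.30 with water, which gave an interaction of 3.97 ± 0.15. The CPR5-C dexamethasone arrays were again the only high ones. Of the 8 measured aldehyde dehydrogenases, a family added after its values were seen, 4 were called higher and 2 lower, against 38.5% called over all probe sets, and 2 and 2 after quantile normalization. The betaine aldehyde dehydrogenases ALDH10A9 (1.005) and ALDH10A8 (0.92) and the mitochondrial ALDH6B2 (0.94) were higher, and ALDH2C4, which makes ferulic and sinapic acid, was lower (-1.06 ± 0.09). ALDH2C4 was at -0.74, -0.57 and -0.69 in CPR5-C dexamethasone leaves, against 0.29, 0.34 and 0.29 in wild-type dexamethasone leaves, and the water arrays of both genotypes lay between.

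Genes for moving sugar split to both sides. SWEET proteins are membrane channels that let sugars pass down their gradient, and 16 of them were measured. Of these 5 were called higher and 3 lower (50.0%, against 38.5% of all probe sets), and 2 and 2 after quantile normalization, with interactions spread between -3.94 and 6.26 and a median of 0.17. The senescence-associated SAG29, which is SWEET15, had the highest (6.26). SWEET4 had 3.27, 2.95 and 2.51 in CPR5-C dexamethasone leaves and values between -0.19 and 0.17 on the other 9 arrays, an interaction of 2.85 ± 0.20 (adjusted p = 4.02e-08). SWEET1 was at 1.05. On the other side, the vacuolar fructose carrier SWEET17 had -1.495, -1.86 and -2.16 in CPR5-C dexamethasone leaves and 0.01, -0.04 and 0.13 in wild-type dexamethasone leaves, an interaction of -2.11 ± 0.17, and the vacuolar SWEET2 reached -1.11 ± 0.10. SWEET13, a sucrose carrier, had the lowest interaction of the family (-3.94 ± 0.13) and is described with the opposite responses below. DPE1, the chloroplast enzyme that rearranges maltotriose from starch, was at 2.06, 1.38 and 2.25 in CPR5-C dexamethasone leaves against 0.01, -0.01 and -0.05 in wild-type dexamethasone leaves (2.01 ± 0.24).

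Beta-glucosidases, which release compounds stored as glucosides, had 6 calls on the higher and 2 on the lower side among 22 measured. That share of 36.4% is near the 38.5% called over all probe sets, and quantile normalization left 3 higher and 1 lower. The ends of that range were close relatives. BGLU45 stood at 8.602, 8.61 and 8.47 in CPR5-C dexamethasone leaves, against -0.10, 0.00 and -0.07 in wild-type dexamethasone leaves. BGLU47 stood at -2.67, -2.58 and -2.92, against 0.30, 0.33 and 0.02, so the CPR5-C dexamethasone arrays were the highest 3 for the first and the lowest 3 for the second. Their interactions were 8.41 ± 0.11 and -3.65 ± 0.18. BGLU46, the neighbour of BGLU45 on the chromosome, was at 0.999 ± 0.22.

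**Figure D2:**
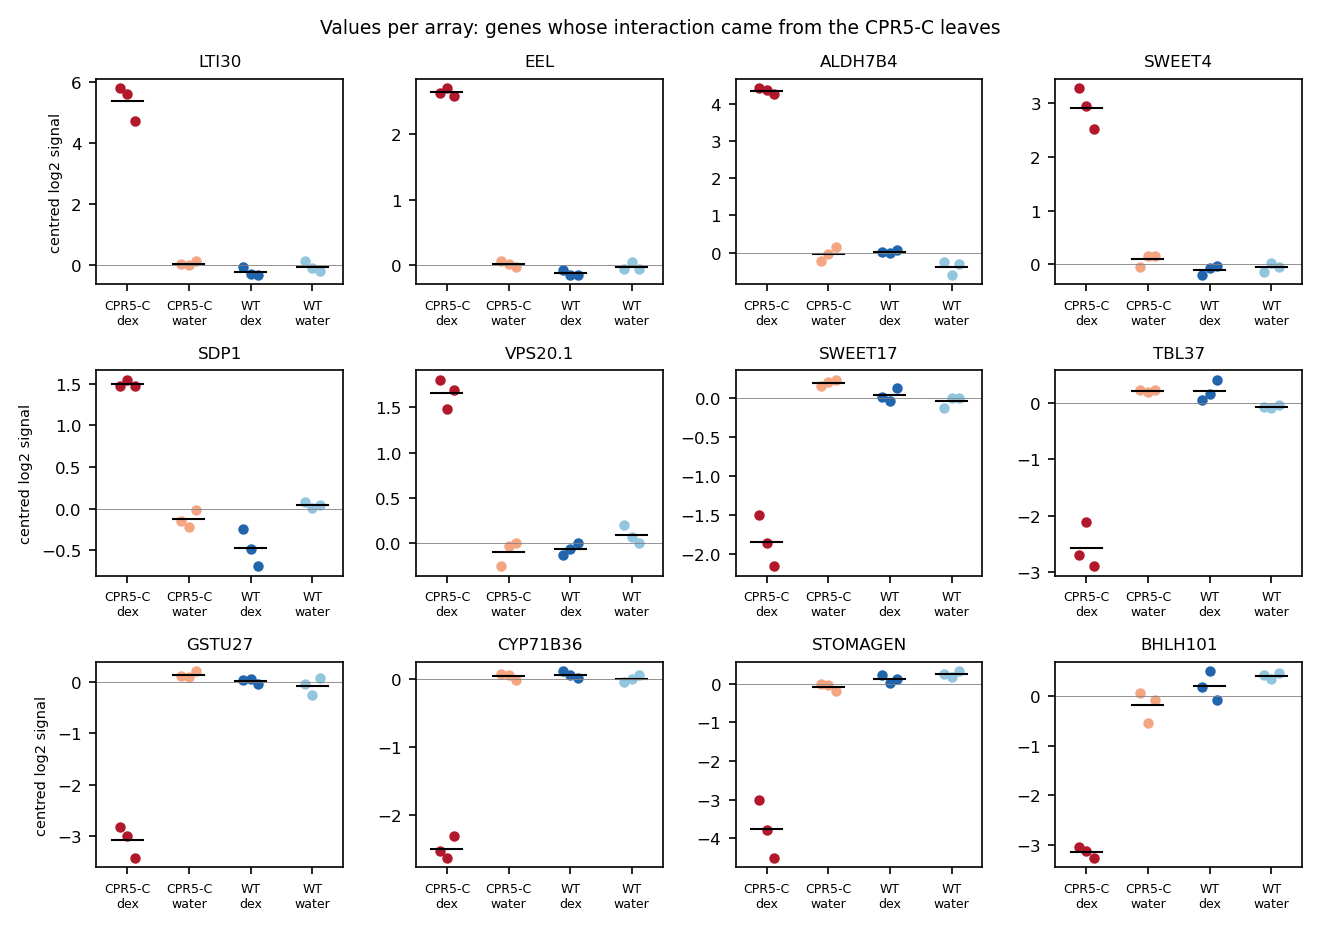
Centred log2 signal (vertical axes) on each of the 12 arrays for 12 genes, with CPR5-C dexamethasone leaves at the left of each panel and a bar at each group's mean (3 arrays). In all 12 panels the 3 CPR5-C dexamethasone arrays lie outside the other 9, above them for the first 6 genes and below them for the last 6.

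Cell wall genes also moved to both sides, and with more than 1 pattern over the groups. Of 15 measured genes of wall loosening and remodelling, 6 were called higher and 2 lower (53.3%, against 38.5% of all probe sets). XTH19, which cuts and rejoins xyloglucan, stood at 6.096, 5.92 and 5.77 in CPR5-C dexamethasone leaves against -0.33, 0.18 and 0.85 in wild-type dexamethasone leaves. Among 10 alpha-expansins, proteins that loosen the wall, EXPA16 (2.25 ± 0.19) and EXPA9 (1.41 ± 0.17) were called higher and EXPA8 lower (-2.702 ± 0.28). EXPA8 had -2.75, -3.14 and -3.69 in CPR5-C dexamethasone leaves and 0.03, 0.03 and -0.21 in CPR5-C water leaves. The higher calls also hold EXLA1, EXO, XTH18 and EXGT-A3, which had other patterns over the groups and are described with them below. After quantile normalization the wall genes had 7 calls higher and none lower, and EXPA8 (-0.55) was not called.

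Trichome birefringence-like (TBL) proteins add acetyl groups to wall polysaccharides. Of 24 probe sets of this family, added after its values were seen, 10 were called lower and 2 higher (50.0%, against 38.5% of all probe sets), and 5 and 1 after quantile normalization. TBL37 had -2.69, -2.104 and -2.896 in CPR5-C dexamethasone leaves, and all 9 other values lay between -0.10 and 0.40, an interaction of -3.05 ± 0.21. TBL28 had -2.54, -2.65 and -2.36 in CPR5-C dexamethasone leaves and values between -0.04 and 0.21 elsewhere (-2.66 ± 0.12). In TBL26 (-2.198 ± 0.12) a wild-type rise contributed. On the spike scale the family's calls were 5 lower and 10 higher, so only the larger negative interactions keep their side.

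Some single members of the enzyme families that modify foreign and reactive compounds had large negative interactions, while the family counts were mixed. In the list of oxidative stress and detoxification 1 of 5 genes was called, on the higher side (NDB2, described below), and the median was 0.17. Tau-class glutathione transferases join glutathione to reactive compounds. Of 11 measured 4 were called lower and 2 higher (54.5%, against 38.5% of all probe sets), and 3 and 1 after quantile normalization. GSTU20 had -2.6004, -2.49 and -3.74 in CPR5-C dexamethasone leaves against 0.07, 0.05 and -0.01 in wild-type dexamethasone leaves, an interaction of -3.36 ± 0.32. GSTU27 had -2.83, -3.01 and -3.43 against 0.03, 0.07 and -0.03 (-3.32 ± 0.18). GSTU18 was lower by less (-1.28 ± 0.09), while GSTU26 went the other way (2.35 ± 0.26). The 22 cytochrome P450 probe sets had 8 calls lower and 1 higher. The called share of 40.9% is near the 38.5% over all probe sets, of which 20.4% were lower. CYP71B36 had -2.53, -2.63 and -2.31 in CPR5-C dexamethasone leaves, and its other 9 values lay between -0.05 and 0.11 (-2.58 ± 0.11, adjusted p = 4.70e-10). CYP71B29 was at -1.47, and CYP71B26, of the same subfamily, was the single higher call (1.71). On the spike scale the P450 calls were 2 lower and 9 higher, and after quantile normalization 6 were lower and none higher.

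Glucosinolates are sulfur-containing defence compounds. UGT74B1, the glucosyltransferase of their core pathway, had -1.07, -1.09 and -1.12 in CPR5-C dexamethasone leaves and 0.37, 0.45 and 0.70 in CPR5-C water leaves, against 0.41, 0.29 and 0.16 in wild-type dexamethasone leaves and -0.16, -0.18 and -0.30 in wild-type water leaves. The CPR5-C change was -1.602 and the wild-type change 0.50, an interaction of -2.099 ± 0.13. BCAT4, the first enzyme of methionine chain elongation, had -3.17, -2.498 and -5.28 in CPR5-C dexamethasone leaves, and these replicates differed widely among themselves, so its interaction has a large error (-4.596 ± 0.65). The glucosinolate carrier GTR1 was called lower (-0.91 ± 0.09). In the aliphatic glucosinolate list 2 of 3 measured genes, BCAT4 and GTR1, were called lower (66.7%, against 38.5% of all probe sets). The other gene of that list did not pass (-0.19). On the spike scale 1 of the 3 was lower, and after quantile normalization 3 were. Among 51 UDP-glycosyltransferases as a whole, 8 were called higher and 9 lower (33.3%, against 38.5% of all probe sets), and the median was 0.01. Quantile normalization left 3 higher and 8 lower.

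**Figure D3:**
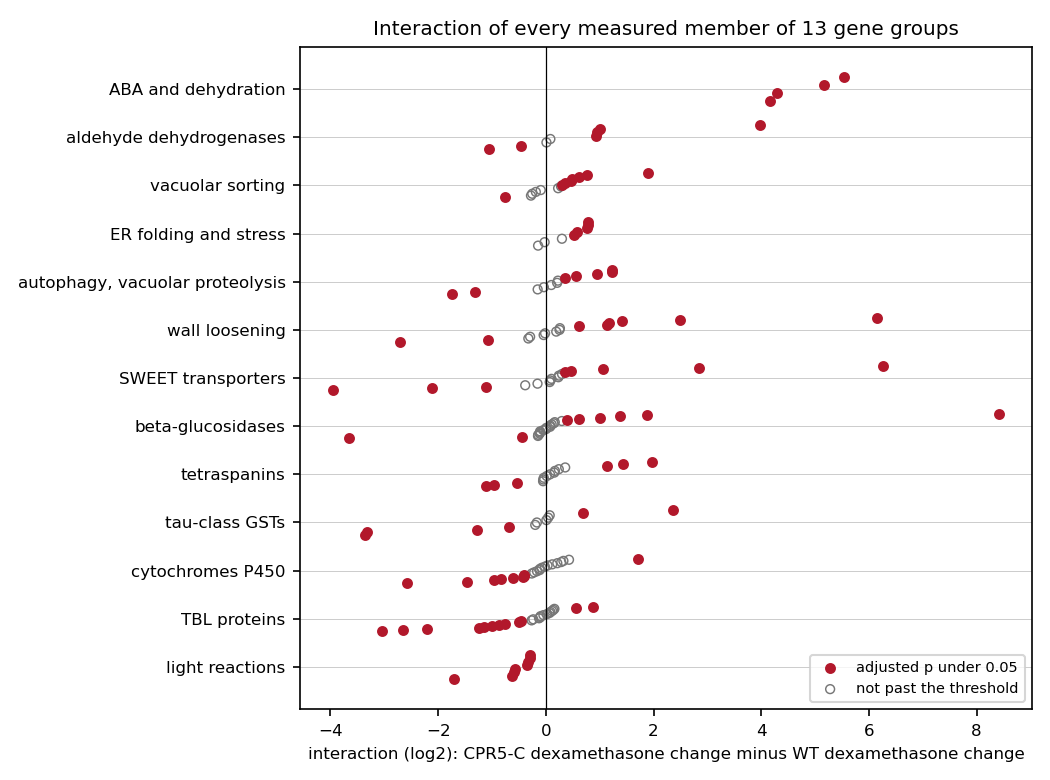
Interaction (horizontal axis, log2; CPR5-C dexamethasone change minus wild-type dexamethasone change) of each measured probe set in 13 gene groups, 1 row a group, filled where the adjusted p was under 0.05. The dehydration genes lie at 4.17 and above, while SWEET transporters, beta-glucosidases and glutathione transferases reach far to both sides.

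Genes that break down lipid and amino acids were called on the higher side where they were called, 2 of 3 for peroxisomal fatty acid oxidation and 4 of 5 for amino acids. Over all probe sets 38.5% were called, and 18.1% higher. SDP1, the lipase that starts the breakdown of triacylglycerol, had 1.48, 1.55 and 1.47 in CPR5-C dexamethasone leaves and -0.14, -0.22 and -0.01 in CPR5-C water leaves, against -0.24, -0.48 and -0.69 in wild-type dexamethasone leaves and 0.08, 0.01 and 0.05 in wild-type water leaves. Its change was 1.62 in CPR5-C leaves and -0.52 in wild-type leaves. AIM1, an enzyme of peroxisomal beta-oxidation, had 1.45, 1.38 and 1.48 in CPR5-C dexamethasone leaves and values between -0.19 and 0.06 elsewhere (1.32 ± 0.10). The 4 called genes of nitrogen remobilisation and amino acid breakdown were AT4G33150, the lysine-degrading enzyme LKR/SDH (1.85 ± 0.25), isovaleryl-CoA dehydrogenase IVD (1.07 ± 0.14), and MCCA (0.66 ± 0.14) and MCCB (0.37 ± 0.10), the subunits of methylcrotonyl-CoA carboxylase. IVD and both MCC subunits belong to leucine breakdown. NDB2, an NAD(P)H dehydrogenase of the mitochondrial electron transport chain, had 1.82, 1.86 and 1.97 against -0.02, 0.04 and 0.23 in wild-type dexamethasone leaves (1.503 ± 0.13). After quantile normalization NDB2 (0.16), IVD, MCCA and MCCB were not called.

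ATG8 proteins coat the membranes of autophagy, the delivery of cell contents to the vacuole, and the members did not share a direction. In a list of 12 genes of autophagy and vacuolar proteolysis, 5 were called higher and 2 lower (58.3%, against 38.5% of all probe sets). APG8A, which is ATG8A (1.23 ± 0.13), ATG8D (1.22 ± 0.12), ATG8H (0.95 ± 0.18) and ATG8B (0.56 ± 0.17) were among the higher ones. ATG8E was lower, with -2.101, -1.96 and -2.16 in CPR5-C dexamethasone leaves and 0.00, 0.00 and -0.29 in wild-type dexamethasone leaves (-1.32 ± 0.17). GAMMA-VPE, a vacuolar protease of cell death and senescence, had -0.64, -0.61 and -0.75 in CPR5-C dexamethasone leaves against 0.20, 0.22 and 0.39 in wild-type dexamethasone leaves (-1.75 ± 0.13). After quantile normalization 1 gene of this list was called higher and 1 lower; ATG8E turned to 0.20, which did not pass, and ATG8A, ATG8D and ATG8B were not called. Close ATG8 paralogues may share probe signal, which could not be checked here.

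In the list of protein folding in the endoplasmic reticulum, 5 of 8 probe sets were called higher and none lower, with a median of 0.55. That share is 62.5%, against 38.5% called over all probe sets. The 3 membrane-linked or spliced bZIP factors that report stress there were all among them: BZIP60 (0.79 ± 0.11), BZIP17 (0.76 ± 0.09) and BZIP28 (0.57 ± 0.09). ATERDJ2A, a J-domain protein of the translocation channel, had 0.90, 0.98 and 0.95 in CPR5-C dexamethasone leaves and values between -0.18 and 0.07 on the other arrays (0.79 ± 0.08), and the calreticulin CRT1b was at 0.52 ± 0.09. These shifts were small but the CPR5-C dexamethasone arrays lay above all others in each of the 5. After quantile normalization 1 of the 8 was called higher, and BZIP17 turned to -0.037, which did not pass. Vacuolar sorting (VPS) proteins, a family added after its values were seen, had 7 of 14 called higher and 1 lower (57.1%, against 38.5% of all probe sets), and 2 and none after quantile normalization. VPS20.1, of the ESCRT machinery that sorts membrane proteins into vesicles, had 1.803, 1.48 and 1.69 in CPR5-C dexamethasone leaves and at most 0.20 elsewhere (1.902 ± 0.13). VPS2.1 (0.76 ± 0.09) and SNF7.1 (0.61 ± 0.11), also of that machinery, followed.

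The hormone lists had few measured genes, and their calls lay on both sides. For comparison, 38.5% of all probe sets were called, 18.1% higher and 20.4% lower. IAA29, a repressor of auxin signalling, had 2.83, 3.297 and 3.38 in CPR5-C dexamethasone leaves against -0.46, -0.28 and -0.64 in wild-type dexamethasone leaves, and WES1, which is GH3.5 and joins amino acids to auxin, had 1.67, 2.201 and 1.95 against -0.22, -0.02 and -0.38. Their interactions were 4.05 ± 0.26 and 2.31 ± 0.18, and the other 5 of 7 auxin genes did not pass. The called share of the auxin list was thus 28.6%, below that over all probe sets. ARR15, a response regulator induced by cytokinin, had -2.61, -2.97 and -3.12 in CPR5-C dexamethasone leaves against 0.00, -0.23 and 0.08 in wild-type dexamethasone leaves. It was called lower (-2.14 ± 0.18) although dexamethasone also lowered it in wild-type leaves (-0.80, adjusted p = 7.08e-04). Of the 2 measured genes of the cytokinin list only ARR15 was called (50.0%), and the other did not pass (0.096). All 3 measured genes of the gibberellin and brassinosteroid list, the gibberellin receptors, were called: GID1A (0.59 ± 0.14) and GID1B (0.56 ± 0.18) higher and GID1C (-0.77 ± 0.16) lower. GID1B lost its call (0.45 to 0.52) when CPR5-C dexamethasone replicate 2, CPR5-C water replicate 1, wild-type dexamethasone replicate 1 or wild-type water replicate 2 or 3 was left out. In the jasmonate list 3 of 5 genes were called lower and none higher: JMT, MYC4, described below, and the thionin THI2.1 (-0.42 ± 0.12), which turned to 0.16 on the spike scale. JMT, which makes methyl jasmonate, was at -2.25, -2.53 and -2.27 against 0.48, 0.21 and 0.44 (-3.01 ± 0.13). In the immune lists 1 of 4 salicylic acid genes and 1 of 3 pattern-triggered immunity genes were called, both higher: SAG101 (0.78 ± 0.15) and the kinase BIK1 (1.62 ± 0.15). After quantile normalization ARR15 (-0.071), SAG101, GID1A and THI2.1 were not called, and GID1B turned to -0.19, which did not pass.

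In the light reactions of photosynthesis 8 of 8 measured genes were called lower, against 20.4% of all probe sets. Of these 7 had interactions between -0.64 and -0.29, and on the spike scale 1 was lower and none higher. After quantile normalization 1 was lower as well. LHCB4.3, an antenna protein of photosystem II, was the gene lower on the spike scale, with -1.24, -1.3998 and -1.62 in CPR5-C dexamethasone leaves against 0.15, 0.01 and 0.30 in wild-type dexamethasone leaves (-1.7004 ± 0.18). In the chlorophyll synthesis list 3 of 7 genes were called lower and 1 higher (57.1%, against 38.5% of all probe sets). The largest interaction was the higher one, PORB, described below. After quantile normalization 1 was lower and 1 higher. CHLM, a methyltransferase of that list, had -1.46, -1.58 and -1.503 in CPR5-C dexamethasone leaves, and the other 9 values lay between -0.04 and 0.20 (-1.34 ± 0.08). The iron regulators BHLH101 and PYE were both called lower, with different patterns. BHLH101 had -3.03, -3.12 and -3.26 in CPR5-C dexamethasone leaves against 0.18, 0.50 and -0.07 in wild-type dexamethasone leaves (-2.75 ± 0.21). PYE had -0.04, -0.04 and -0.07 in CPR5-C dexamethasone leaves, 0.23, 0.02 and 0.06 in CPR5-C water leaves, 0.34, 0.81 and 0.82 in wild-type dexamethasone leaves and -0.06, -0.08 and -0.02 in wild-type water leaves. PYE thus rose in wild-type leaves (0.71, adjusted p = 5.43e-04) and showed no called change in CPR5-C leaves (-0.15, adjusted p = 0.276), and the interaction was -0.86 ± 0.15. After quantile normalization BHLH101 (-0.72) was not called.

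In the guard cell list 2 of 4 genes were called lower and none higher (50.0%, against 38.5% of all probe sets called). Of its 3 genes of the stomatal lineage, the transcription factor FMA was called lower (-0.35 ± 0.12, adjusted p = 0.0281), while SPCH (0.15) and MUTE (-0.23) did not pass. FMA was not called after quantile normalization, and it turned to 0.24 on the spike scale. It also lost its call (-0.34 to -0.26) without replicate 1 or 2 of CPR5-C dexamethasone, 1 or 2 of CPR5-C water, 3 of wild-type dexamethasone or 2 or 3 of wild-type water. The other call was STOMAGEN, which is no lineage gene. STOMAGEN, a peptide that mesophyll cells send out to raise stomatal number, had -3.001, -3.79 and -4.51 in CPR5-C dexamethasone leaves and 0.22, 0.01 and 0.11 in wild-type dexamethasone leaves (-3.56 ± 0.35). TRY, a repressor of trichome fate, had -2.25, -2.03 and -2.51 against 0.17, 0.11 and 0.31 (-2.67 ± 0.14). The phloem marker SWEET11, a sucrose carrier, was called higher (0.35 ± 0.09, adjusted p = 0.00616) and was not called after quantile normalization. The mesophyll marker RCA did not pass, at -0.08, and no probe set could be named for a xylem or bundle sheath marker. Whether the make-up of the leaf differed between the groups was not tested. Tetraspanins, membrane proteins that organise other proteins, had 3 of 15 called higher and 3 lower, a share of 40.0% near the 38.5% of all probe sets, and 3 and 1 after quantile normalization. They were led by TET7 (1.98 ± 0.11), TET15 (1.43 ± 0.15) and TET3 (-1.11 ± 0.13).

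Further genes with large interactions belonged to no list. LCR69, a defensin-type peptide also called PDF2.2, had 4.05, 4.19 and 4.25 in CPR5-C dexamethasone leaves and -0.57, -0.56 and -0.99 in CPR5-C water leaves, against -0.10, -0.31 and 0.01 in wild-type dexamethasone leaves and 0.23, -0.01 and 0.32 in wild-type water leaves. The CPR5-C water arrays were the lowest 3, so the water difference between genotypes (-0.89) added to its interaction of 5.19 ± 0.17. MYBC1, a MYB-related factor, had 5.01, 4.98 and 5.12 in CPR5-C dexamethasone leaves, and its other 9 values lay between -0.33 and 0.18 (4.88 ± 0.13). AT3G58060, for which the tables used here give no name, had 5.08, 4.89 and 4.92 and otherwise values between -0.20 and 0.12 (4.88 ± 0.11). AT5G50915 had 3.77, 3.72 and 3.65 in CPR5-C dexamethasone leaves, -0.34, -0.44 and -0.89 in CPR5-C water leaves and -0.63, -0.58 and -0.47 in wild-type dexamethasone leaves, with only the wild-type water arrays in between at 0.34, 0.47 and 0.72.

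Opposite responses (a wild-type share of the interaction between 0.25 and 0.75) made up 254 of the 2363, with 100 interactions on the higher and 154 on the lower side. The median change in size was 0.83 in CPR5-C leaves and 0.53 in wild-type leaves. Over all calls of any size, the sprays did not overlap in either genotype and lay in opposite order for 1511 probe sets (6.64% of those tested). AT4G28085 had 1.87, 1.83 and 1.92 in CPR5-C dexamethasone leaves and -0.59, -0.62 and -0.72 in CPR5-C water leaves, against -0.89, -0.53 and -0.89 in wild-type dexamethasone leaves and 0.53, 0.64 and 0.89 in wild-type water leaves. It rose by 2.52 in CPR5-C leaves and fell in wild-type leaves (-1.45), and its CPR5-C water and wild-type dexamethasone arrays overlapped. AT4G33420 did the same with changes of 2.36 and -0.86. PORB, which makes chlorophyllide in the light, had 1.02, 1.15 and 1.33 in CPR5-C dexamethasone leaves, -0.46, -0.30 and -0.21 in CPR5-C water leaves, -0.81, -0.66 and -0.69 in wild-type dexamethasone leaves and 0.61, 0.39 and 0.21 in wild-type water leaves, with no overlap between sprays in either genotype.

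The lower side had the same form. SWEET13 had -2.63, -2.33 and -2.52 in CPR5-C dexamethasone leaves and 0.29, 0.22 and 0.54 in CPR5-C water leaves, against 0.70, 0.82 and 0.87 in wild-type dexamethasone leaves and -0.22, -0.36 and -0.34 in wild-type water leaves. It fell in CPR5-C leaves (-2.84, adjusted p = 7.82e-12) and rose in wild-type leaves (1.101, adjusted p = 2.81e-06). AT1G11700 changed by -1.94 in CPR5-C leaves and 1.35 in wild-type leaves, and TBL26 by -1.38 and 0.81. MYC4, a transcription factor of the jasmonate response, had -0.33, -0.25 and -0.35 in CPR5-C dexamethasone leaves and 0.16, 0.29 and 0.41 in CPR5-C water leaves. Its wild-type values were 0.81, 0.83 and 0.74 with dexamethasone and -0.16, -0.16 and -0.22 with water, so the wild-type dexamethasone arrays stood farthest from the rest (-1.57 ± 0.10). In 210 of the 254 the CPR5-C water mean was nearer to the wild-type dexamethasone mean than to the wild-type water mean, against 1480 of all 2363. The same values sorted the class, which makes a larger share likely, so this is a description. With the wild-type water arrays left out of the contrast, as CPR5-C dexamethasone minus the mean of CPR5-C water and wild-type dexamethasone, the median size in this class was 0.89, against 1.33 for the interaction. The class was sorted by the wild-type change, so this smaller size follows in part from the sorting.

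Among the 2363 calls of at least 1 in size, 166 moved the same way with dexamethasone in both genotypes and further in CPR5-C leaves. GI, a protein of the circadian clock and flowering, had 2.15, 2.23 and 2.56 in CPR5-C dexamethasone leaves, -0.14, -0.15 and 0.01 in CPR5-C water leaves, -0.01, 0.03 and 0.02 in wild-type dexamethasone leaves and -0.48, -0.78 and -0.65 in wild-type water leaves. It rose by 2.403 in CPR5-C leaves and by 0.65 in wild-type leaves (1.75 ± 0.14). WSD1, a wax ester synthase, rose by 2.15 in CPR5-C leaves and 1.03 in wild-type leaves (1.12 ± 0.22), and PUB19, a ubiquitin ligase of drought signalling whose interaction was under 1 and is not among the 166, rose by 1.71 and 1.03 (0.68 ± 0.14). AT1G57590 changed by 3.42 and 0.70 (2.73 ± 0.23). AT3G06070 fell in both, to -3.21, -3.25 and -3.69 in CPR5-C dexamethasone leaves and -0.32, -0.15 and -0.37 in wild-type dexamethasone leaves, with 0.31, 0.15 and 0.32 in CPR5-C water leaves and 1.16, 0.96 and 1.18 in wild-type water leaves (-2.26 ± 0.16). Quantile normalization ended the calls of GI (0.043), AT1G57590 (0.11) and AT3G06070 (-0.037), and it turned WSD1 (-0.16) and PUB19 (-0.83).

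In 49 probe sets the interaction came from the wild-type side: 30 with little change in CPR5-C leaves and 19 that changed the same way but less. Of the 49, 43 had a higher interaction and 6 a lower one. AT2G27080 had -0.04, -0.11 and 0.05 in CPR5-C dexamethasone leaves and 0.31, -0.22 and 0.04 in CPR5-C water leaves, against -1.19, -0.97 and -1.27 in wild-type dexamethasone leaves and 1.69, 1.82 and 2.11 in wild-type water leaves. It fell in wild-type leaves (-3.01) and showed no called change in CPR5-C leaves (-0.08, adjusted p = 0.672). AT4G31000 and AT2G41640 had a similar form, with interactions of 2.06 and 2.06. In AT4G31000, however, all CPR5-C dexamethasone arrays lay above the CPR5-C water arrays. EXLA1, an expansin-like wall protein, had -0.58, -0.49 and -0.76 in CPR5-C dexamethasone leaves and 0.60, 0.22 and 0.27 in CPR5-C water leaves, against -1.02, -0.22 and -1.11 in wild-type dexamethasone leaves and 2.64, 2.66 and 2.77 in wild-type water leaves. EXO, a growth-related wall protein, had -1.13, -0.90 and -1.404 and 0.64, 0.94 and 0.28 in CPR5-C leaves under dexamethasone and water, against -0.51, -0.34 and -0.28 and 2.79, 2.73 and 2.91 in wild-type leaves. For both, the wild-type water arrays were the highest 3 and far from the rest. The change was -1.77 in CPR5-C leaves and -3.19 in wild-type leaves for EXO, and -0.98 and -3.47 for EXLA1.

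In many of these 49 the genotypes already differed under water. Of the 49, 24 had a water difference between genotypes of at least 1 in size, against 24 of the other 2314. Without the wild-type water arrays in the contrast the median size of the 49 was 0.37, against 1.31 for the interaction, and 21 were called with the same sign. Of the other 2314, 2313 were called with the same sign, and the median size was 1.43 against 1.44. Part of that contrast is the CPR5-C change itself, which the sorting makes small or opposite in sign for the 49. The smaller sizes and turned signs thus follow in part from the sorting and are a description. EXLA1 was at -0.40 by that contrast, EXO at -1.27, AT1G33760 at -0.56, AT1G50040 at -0.08 and XTH18 at -0.12, all of them on the opposite side of 0 from their interactions of 2.49, 1.42, 1.98, 2.304 and 1.13. WRKY53, a senescence regulator, had -0.12, -0.30 and -0.22 in CPR5-C dexamethasone leaves and 0.58, 0.12 and 0.15 in CPR5-C water leaves, against -1.296, -1.14 and -1.01 in wild-type dexamethasone leaves and 1.02, 0.48 and 0.66 in wild-type water leaves. Its interaction of 1.37 ± 0.20 became 0.22 (adjusted p = 0.154) by that contrast. In EXLA1, EXO and WRKY53 the higher interaction was a smaller fall in CPR5-C leaves, and none of them rose there. EXGT-A3, a xyloglucan endotransglucosylase of the opposite-response class and not one of the 49, kept its side (0.60 against 1.17), with 0.29, 0.28 and 0.22 in CPR5-C dexamethasone leaves and -0.41, -0.34 and -0.49 in wild-type dexamethasone leaves.

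**Figure D4:**
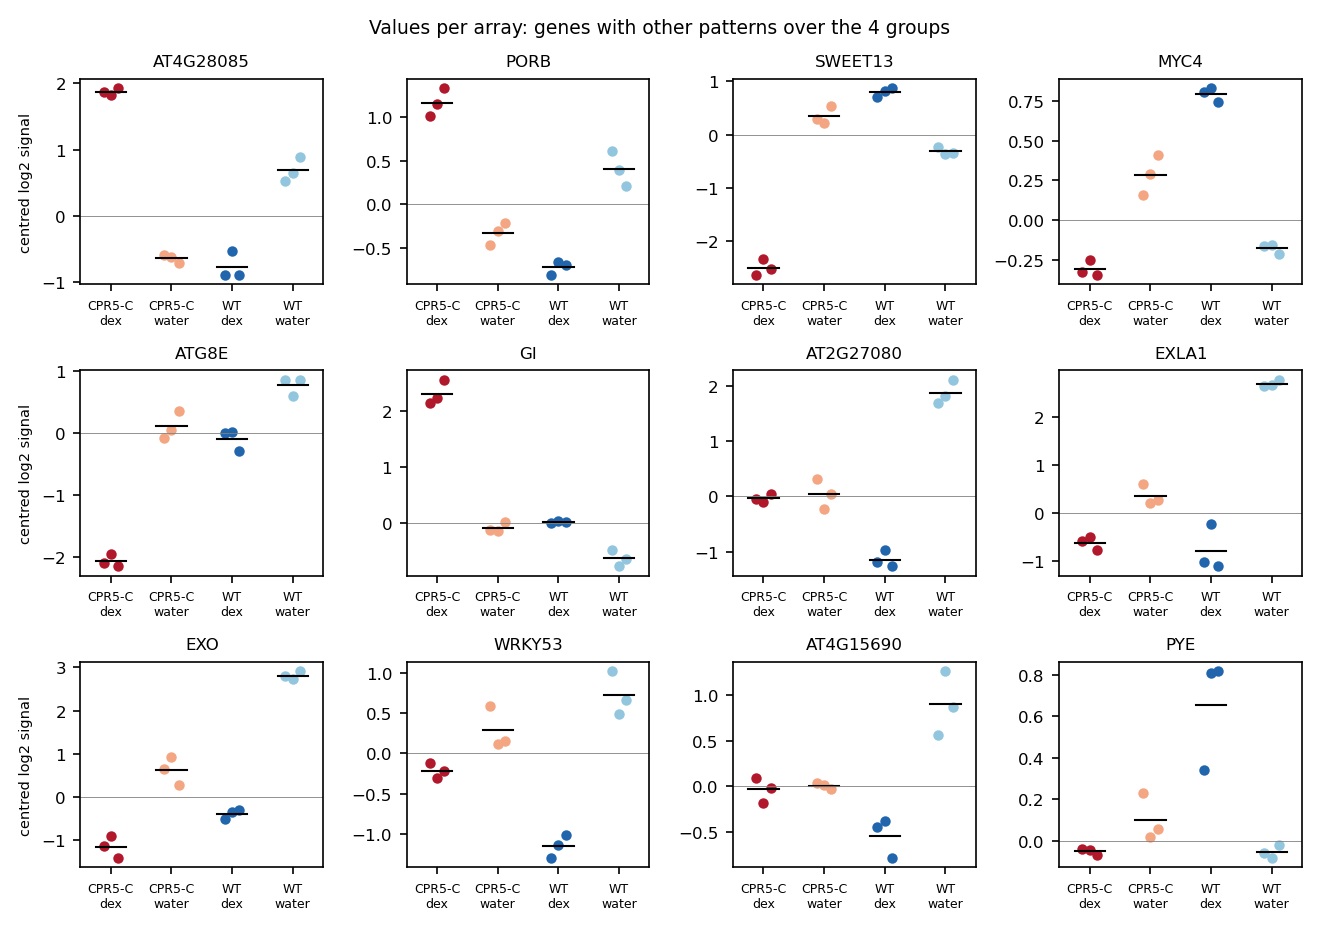
Centred log2 signal (vertical axes) on each of the 12 arrays for 12 genes whose interaction did not come from CPR5-C leaves alone, CPR5-C dexamethasone leaves at the left and a bar at each group's mean (3 arrays). AT4G28085, PORB, SWEET13 and MYC4 changed in opposite directions in the genotypes, ATG8E and GI changed the same way and more in CPR5-C leaves, and EXLA1 and EXO have their highest values on the wild-type water arrays.

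Neighbouring genes on a chromosome in 7 places formed runs of at least 3 with calls of at least 1 on the same side, the longest of 4 genes. Such calls made up 5.19% of all probe sets on the higher and 5.2% on the lower side. Whether 7 runs are more than these shares would give was not tested. In AT2G29290, AT2G29300, AT2G29310 and AT2G29320 the interactions were -3.18, -2.21, -2.83 and -2.76, and the CPR5-C dexamethasone arrays were the lowest 3 for each. AT1G28570, AT1G28580, AT1G28590 and AT1G28600 were all higher, between 1.29 and 1.75. AT4G15660, AT4G15680, AT4G15690 and AT4G15700 were higher as well (1.85, 2.28, 1.397 and 2.27), but in each of them the wild-type fall was larger in size than the CPR5-C change. AT4G15690 had 0.09, -0.18 and -0.01 in CPR5-C dexamethasone leaves and 0.04, 0.01 and -0.03 in CPR5-C water leaves, against -0.45, -0.38 and -0.79 in wild-type dexamethasone leaves and 0.56, 1.26 and 0.87 in wild-type water leaves. Neighbours of this kind are often copies of each other whose probes can share signal, which could not be checked here.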

How the data were processed

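The authors' deposited values are log2 signals of 12 ATH1 arrays. The submitters' processing notes name RMA. Tested on the file, each probe set's median over the arrays was 0 (tolerance 1e-06); array files were not used here. RNA came from TRIzol extracts amplified with MessageAmp Premier, per the labels' protocols. Probe sets were named from the platform table and RefSeq symbols: of 22746 tested (64 controls left out), 13513 had 1 gene, 503 several and 8730 none. limma 3.58.1 in R 4.3.3 (lmFit, eBayes, group means, 8 residual and 5.79 prior degrees of freedom) gave the interaction, with two-sided p adjusted by Benjamini-Hochberg over all probe sets. The fit was tested on simulated data, and figures were drawn with matplotlib 3.10.9.

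The members, lists and tests were chosen with earlier results of these data known, and nothing here is independent support for them. Genes named are the 30 largest and 30 smallest interactions, up to 6 of each class, group apart and list and up to 3 of each family by p; 13 of the 119 genes in the text fall outside this rule and were named after their values were seen. For the list names CHI, FDH and NDC1 the RefSeq symbol belongs to another gene, and these 3 were left out. Of the same-numbered arrays 2 of 18 pairs had a correlation of deviations over 0.1 (from -0.21 to 0.36). Of the differently numbered arrays 11 of 36 pairs did (from -0.40 to 0.42). The numbers were therefore not taken as pairs, and deviations that arrays of different groups shared otherwise were not modelled. Alternatives were the replicate block, quantile normalization, median centring, spike scaling, array weights, a trended robust fit, single-gene probe sets, other thresholds, a contrast without wild-type water and each array left out; those for the classes by median centring and with an array left out were added after seeing the data. Promoter sequences were not analysed here.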

Additional observations from a re-analysis of the deposited data

Results flagged for a closer look

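The dexamethasone response differed between the genotypes, by the interaction itself, for 4121 probe sets on the higher and 4634 on the lower side. In 36 of the called genes named above every CPR5-C dexamethasone array lay on one side of the CPR5-C water arrays. In the same genes every wild-type dexamethasone array lay on the other side of the wild-type water arrays, as for 1511 probe sets (6.64%) in all. No size was required of the change in either genotype. For PYE the CPR5-C change of -0.15 was not called. In others the wild-type change was small, as for EEL (-0.10), CYP71B29 (0.12) and VPS20.1 (-0.15). Not all of these 36 thus belong to the opposite-response class described above. On the higher side these 18 were, with their interactions, AT5G50915 (5.34), COR47 (4.17), IAA29 (4.05), AT4G28085 (3.97), AT4G33420 (3.22), EEL (2.72), PORB (2.62), WES1 (2.31), AT4G15680 (2.28), AT4G15700 (2.27), SDP1 (2.14), AT4G31000 (2.06), TET7 (1.98), VPS20.1 (1.902), AT4G33150 (1.85), AT4G15660 (1.85), EXGT-A3 (1.17) and VPS2.1 (0.76). On the lower side the 18 were GID1C (-0.77), PYE (-0.86), GTR1 (-0.91), ALDH2C4 (-1.06), TET3 (-1.11), CYP71B29 (-1.47), MYC4 (-1.57), GAMMA-VPE (-1.75), UGT74B1 (-2.099), TBL26 (-2.198), TRY (-2.67), AT2G29320 (-2.76), JMT (-3.01), TBL37 (-3.05), AT1G11700 (-3.29), BGLU47 (-3.65), SWEET13 (-3.94) and BCAT4 (-4.596).

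Among the 64 control probe sets, which the comparison leaves out, 31 had a called interaction when fitted with the rest, 7 higher and 24 lower. Of the 24 poly-A spike probe sets, 21 were called lower, and all 24 lay between -0.86 and -0.27. Their part in the interactions was not tested beyond the spike-scaled values given here.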

How the results depend on the processing

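Counts of 4121 higher and 4634 lower interactions became 14467 and 1044 with spike scaling (93.3% higher, against 47.1%). They were 1638 and 1903 with quantile normalization of the centred values, which by construction shrinks the wide spread of the CPR5-C dexamethasone arrays. Single-gene probe sets alone gave 2167 and 2388, and the calls at 1 or more in size were 1180 and 1183. The replicate block gave 4003 and 4484, and no named gene changed its call under it; the numbers do not pair the arrays. With an array left out there were 3803 to 4063 and 4284 to 4684. At 1.5 or more in size the classes held 913 (change in CPR5-C), 89 (opposite), 63 (larger in CPR5-C), 9 (change in wild type) and 6 (smaller in CPR5-C), and the group apart was CPR5-C dexamethasone for 1035, CPR5-C water for 3, wild-type dexamethasone for 15, wild-type water for 11 and none for 16. With spike scaling these were 2987 (change in CPR5-C), 541 (opposite), 64 (change in wild type), 3523 (CPR5-C dexamethasone apart) and 96 (wild-type dexamethasone apart), and the CPR5-C dexamethasone arrays lay above the other 9 for 7468 and below for 1426 probe sets. With an array left out the count with CPR5-C water apart, 15, ranged from 6 without CPR5-C water replicate 3 to 33 without its replicate 1, and was 23 without wild-type water replicate 1.

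Of the 119 named genes, none changed its call or side with array weights, median centring or a trended robust fit, and with an array left out only FMA and GID1B lost theirs. Turned by quantile normalization were WSD1 (-0.16), PUB19 (-0.83), BZIP17 (-0.037), GID1B (-0.19) and ATG8E (0.20), and 31 others lost their call, large interactions such as LEA4-5 and BHLH101 among them. With spike scaling RCA, which was not called, became 0.50, FMA turned to 0.24 and THI2.1 to 0.16, SPCH (0.73) gained a call and 4 genes lost theirs. Without wild-type water EXLA1 (-0.40), EXO (-1.27), AT1G33760 (-0.56), AT1G50040 (-0.085) and XTH18 (-0.12) turned, and WRKY53 (0.22) and AT4G15690 (0.23) lost their call. As described above, this follows in part from how their classes were sorted. Precision is limited by 3 arrays a group, and 1182 of the 2363 large interactions have no single gene.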

Other observations

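Several gene groups had calls on both sides or few calls. Over all probe sets 38.5% were called. Of 7 WRKY factors, 3 were called higher and 3 lower (85.7%), and of 9 plant U-box ubiquitin ligases 2 and 2 (44.4%). Of 7 bHLH factors 2 were higher and 2 lower (57.1%), and of 4 heat shock genes 2 were lower (50.0%). The Calvin cycle and photorespiration list had 1 of 5 called higher and 3 lower (80.0%). On the spike scale 2 of that list were higher and none lower. None of the 3 measured nuclear pore genes passed the test, with interactions down to -0.31, and the salicylic acid and ethylene lists had 3 of 4 and 1 of 1 members that did not pass. No probe set could be named for a member of the abscisic acid synthesis or aquaporin lists, which were not analysed here.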
